A study of Mus musculus with 8 samples.

Results

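The genes described here are those for the aminoacyl-tRNA synthetases of the cytosol and of the mitochondria, with the scaffold proteins of the multi-synthetase complex and the tRNA exportin Xpot. They were chosen by symbol, 40 in all among 52778 listed features: 20 cytosolic enzyme genes, 16 mitochondrial ones, 3 scaffold genes (Aimp1, Aimp2 and Eef1e1) and Xpot. All 40 were found, and all 40 were expressed enough to be tested. RNA came from ventricular heart tissue of C57BL/6 mouse embryos at embryonic day 11.5, with 4 control and 4 mutant libraries. Controls are labelled wild type. Mutants are labelled Atf4(del7/del7), homozygous for an allele made with CRISPR/Cas9, although the labels also give them a wild-type genotype field. In this allele exon 3 of Atf4 lacks 7 bases, the reading frame is shifted and the polyadenylation signal is kept. The allele is a whole-body knockout, so the heart and every other tissue of the embryo carry it. The labels do not say whether a library is 1 embryo or a pool. The p-values therefore measure the spread between these libraries.

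An aminoacyl-tRNA synthetase joins 1 amino acid to the tRNAs that carry it, and each enzyme gene is named by the letter code of its amino acid (Iars for isoleucine, Yars for tyrosine). The cytosol and the mitochondria mostly use separate enzymes, and the mitochondrial genes end in 2, while Gars and Kars each make both forms. When uncharged tRNA accumulates, the kinase GCN2 phosphorylates the initiation factor eIF2, and translation of ATF4 goes up. ATF4 is a transcription factor that binds the C/EBP-ATF response element and is known to drive genes that make or import amino acids and genes of cytosolic tRNA charging.

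Because the mutants are labelled Atf4 knockouts, the promoter windows that hold the letters of this element are shown first. Windows of 300 bases, from 250 before to 50 after a start of transcription, were taken from RefSeq on GRCm38.p6 for the 31 of 40 genes with an entry. Cars, Hars, Lars, Nars, Rars, Vars, Wars, Hars2 and Pars2 had none. The letters TGATGNAA were searched on both strands (TTNCATCA on the other), a search that also finds the stricter form TGATGCAA. They occurred in 5 of the 31 genes, or 16.1%, against 3.97% of all 32851 windows. TGATGCAA alone occurred in 4 of the 31 genes, or 12.9%, against 0.895% of all windows. In both comparisons the 31 genes, which had 33 windows, were counted by gene and the background by window. All 5 genes were cytosolic, of 13 cytosolic genes with a window, against 0 of 14 mitochondrial genes with a window. The matches of 4 of these genes are printed 5′ to 3′ on the strand of the gene, 30 bases each, with the matched letters in capitals.
Yars: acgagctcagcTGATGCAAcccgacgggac
Iars: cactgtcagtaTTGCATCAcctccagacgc
Tars: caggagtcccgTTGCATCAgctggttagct
Gars: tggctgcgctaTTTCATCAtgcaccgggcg
The Yars sequence lies at chr4:129189895-129189924 on the plus strand, with its match beginning 4 bases after the start. That of Iars lies at chr13:49682126-49682155 (plus), with the match at base 8 after the start. That of Tars lies at chr15:11399655-11399684 (minus), with the match 15 bases before the start. That of Gars lies at chr6:55037960-55037989 (plus), with the match 30 bases before the start. The start used for Yars lies inside the listed gene, downstream of its first base. That for Aars, which also has a match, lies further inside its listed gene. A match describes the letters in this window and does not show that a factor binds there.

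Expression is given as TPM, the abundance of a transcript relative to all transcripts of the library after correction for its length, so levels of different genes can be set side by side. TPM keeps no read depth, and error is therefore measured by how far the 4 libraries of a group lie from each other. Listed features summed to between 923473 and 949762 TPM per library. The Atf4 transcript itself remained present, with 105, 121, 115 and 105 TPM in the controls and 166, 164, 185 and 148 TPM in the mutants. Every mutant lay above every control, at 112 ± 8.07 TPM in controls and 166 ± 15.1 TPM in mutants (SD, n = 4 each), so the genotype rests on the label, and neither the deleted bases nor the protein were measured here. The 6 ventricular cardiomyocyte markers summed to 37039 to 40324 TPM in controls and 36800 to 39893 TPM in mutants. The 3 atrial cardiomyocyte markers, of which 2 reached 1 TPM, summed to 7374 to 7862 TPM in controls and 7546 to 7980 TPM in mutants. These sums show heart muscle and do not tell ventricular from atrial tissue. The 5 neuronal markers summed to 8.17 to 13.5 TPM in controls and 9.12 to 10.4 TPM in mutants, with Neurod2 at 0 in every library. One protocol field of the labels names cultured cortical neurons, against a tissue label of ventricular heart. Erythroid markers summed to 3195 to 5392 TPM in controls and 2992 to 4116 TPM in mutants. The 4 macrophage markers, of which 2 reached 1 TPM, summed to 4.72 to 10.1 TPM in controls and 3.40 to 5.43 TPM in mutants, and their part in the results was not tested. In bulk tissue, fewer cells of a type and less RNA per cell cannot be told apart.

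The question asked of the synthetase genes is which of them differed in the heart between embryos labelled control and those labelled Atf4(del7/del7). Among the 20 cytosolic enzyme genes, those for isoleucine, cysteine and tyrosine (Iars, Cars and Yars) fell in the mutants, by 23.3% to 35.4%, and passed the limma test over all 15545 genes (adjusted p below 0.05). In 6 others (Nars, Mars1, Aars, Gars, Lars and Tars) all 4 mutant libraries also lay below all 4 controls, by 5.57% to 20.8% on average, without passing that test. No cytosolic gene passed in the other direction, a count of 0 by limma that was also 0 at an unadjusted p below 0.05. Of all genes tested, 0.0386% passed, 0.0322% in the lower direction and 0.00643% in the higher one. At an unadjusted p below 0.05 there were 9 lower and 2 higher genes among the 40, against 3.45% lower, 2.65% higher and 6.1% in either direction among all genes. Groups did not overlap, with mutants lower, in 2.05% of all genes tested and in 9 of the 20 cytosolic genes. The median log2 fold change was -0.047 over the 20 genes and -0.0033 over all genes tested.

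**Figure D1:**
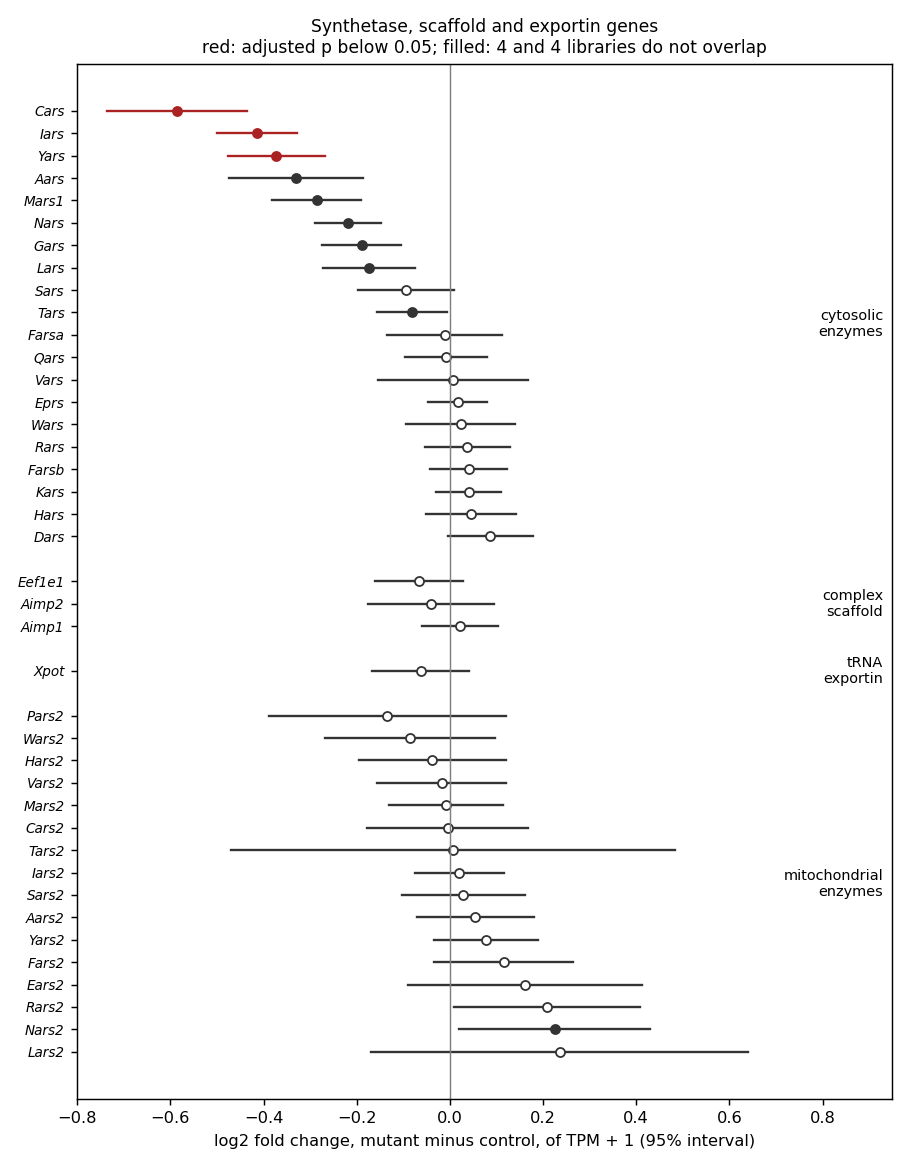
Log2 fold change of TPM + 1, mutant minus control, for each of the 40 genes, grouped by role, with 95% intervals from the limma fit. Red marks an adjusted p below 0.05 over all genes, and filled points mark genes whose 4 mutant and 4 control values do not overlap. The 8 lowest cytosolic points, from Cars at -0.59 to Lars at -0.17, lie left of every scaffold, exportin and mitochondrial point.

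Iars, at chromosome 13 from base 49682130 to 49734267, held 71.7, 69.3, 69.2 and 72.6 TPM in the controls and 55.0, 50.6, 54.0 and 51.7 TPM in the mutants. The lowest control lay 14.2 TPM above the highest mutant, a gap wider than the range within either group. On the scale of log2(TPM + 1), which is used for every fold change here, Iars fell by 0.41, standard error 0.038 (limma adjusted p of 0.00883). The enzyme is 1 of 8 in the multi-synthetase complex, an assembly that holds several cytosolic synthetases together.

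Cars, at chromosome 7 from base 143557230 to 143600090, was the least abundant cytosolic synthetase gene, with 16.3, 16.3, 14.7 and 16.5 TPM in the controls. The mutants held 9.64, 10.4, 11.4 and 9.73 TPM. The mean TPM fell by 35.4%, the largest proportional fall of the 40 genes. The fitted difference of log2(TPM + 1), which understates the change of a gene at this level, was -0.59, standard error 0.067 (limma adjusted p of 0.0420). Its enzyme charges tRNA with cysteine and works outside the complex.

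Yars, at chromosome 4 from base 129189734 to 129219240, held 49.6, 45.0, 44.7 and 45.1 TPM in the controls and 36.3, 33.8, 34.8 and 36.6 TPM in the mutants. The groups were 8.14 TPM apart, although control replicate 1 stood above the other controls. On the log2 scale Yars fell by 0.37, standard error 0.046 (limma adjusted p of 0.0430).

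These 3 calls depend on the full set of libraries: 0 of the 40 genes passed when control replicate 1, 2, 3 or 4 was left out, 1 (Iars) without mutant replicate 1, 2 or 4, and 2 (Iars and Cars) without mutant replicate 3. The count was also 0 with no filter on low expression and with no dependence of the variance on the mean, while the fold changes of Iars, Cars and Yars kept their sign in all 16 alternatives.

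The 6 further genes with separate groups are described by their libraries. Nars, for asparaginyl-tRNA synthetase (chromosome 18, bases 64499655 to 64516515), held 88.7, 85.2, 84.8 and 85.9 TPM in the controls and 71.9, 75.0, 75.2 and 73.3 TPM in the mutants. Nars had the smallest p of the 6, with -0.22 on the log2 scale, standard error 0.031 (limma adjusted p of 0.111).

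Mars1, for the methionine enzyme of the complex (chromosome 10, bases 127296221 to 127311786), held 48.1, 45.7, 45.9 and 48.2 TPM in the controls. The mutants held 40.8, 38.0, 38.0 and 36.5 TPM, so the groups lay 4.94 TPM apart. The difference was -0.29 on the log2 scale, standard error 0.043 (limma adjusted p of 0.140), and Mars1 passed the threshold with median-of-ratios scaling and with quantile normalization. Mars1 shares bases with Ddit3, which encodes the stress factor CHOP and lies on the opposite strand, at 17.0 ± 3.58 TPM in controls and 14.97 ± 3.33 TPM in mutants (SD, n = 4 each). The strand setting of the counting is not given in the sources used here, and the part of Ddit3 reads in the Mars1 values was not tested.

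Aars, for alanine (chromosome 8, bases 111027778 to 111055569), held 66.7, 68.4, 58.4 and 61.0 TPM in the controls and 55.0, 47.4, 47.8 and 51.3 TPM in the mutants. The groups were 3.37 TPM apart, and the difference was -0.33 on the log2 scale with a wider standard error than that of Yars, 0.064 (limma adjusted p of 0.455). Ddx19b overlaps Aars on the opposite strand, at 11.3 ± 0.718 TPM in controls and 11.5 ± 0.369 TPM in mutants (SD, n = 4 each).

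Gars, for glycine, was the most abundant cytosolic synthetase gene and also supplies the mitochondrial enzyme (chromosome 6, bases 55038001 to 55079504). It held 187, 176, 174 and 179.6 TPM in the controls and 165, 151, 155 and 157 TPM in the mutants. The groups lay 8.81 TPM apart, and the difference was -0.19 on the log2 scale, standard error 0.038 (limma adjusted p of 0.470).

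Lars, for the leucine enzyme of the complex (chromosome 18, bases 42202298 to 42262237), held 49.9, 48.1, 45.3 and 45.4 TPM in the controls and 43.6, 41.3, 40.2 and 41.6 TPM in the mutants. Tars, for threonine (chromosome 15, bases 11383663 to 11399658), held 58.5, 56.9, 57.4 and 59.2 TPM in the controls and 53.3, 56.4, 54.1 and 55.2 TPM in the mutants. The groups of Tars were only 0.499 TPM apart, and its difference was 5.57%. The log2 fold change was -0.17 for Lars (standard error 0.044, limma adjusted p of 0.720) and -0.081 for Tars (standard error 0.033, limma adjusted p of 0.809).

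**Figure D2:**
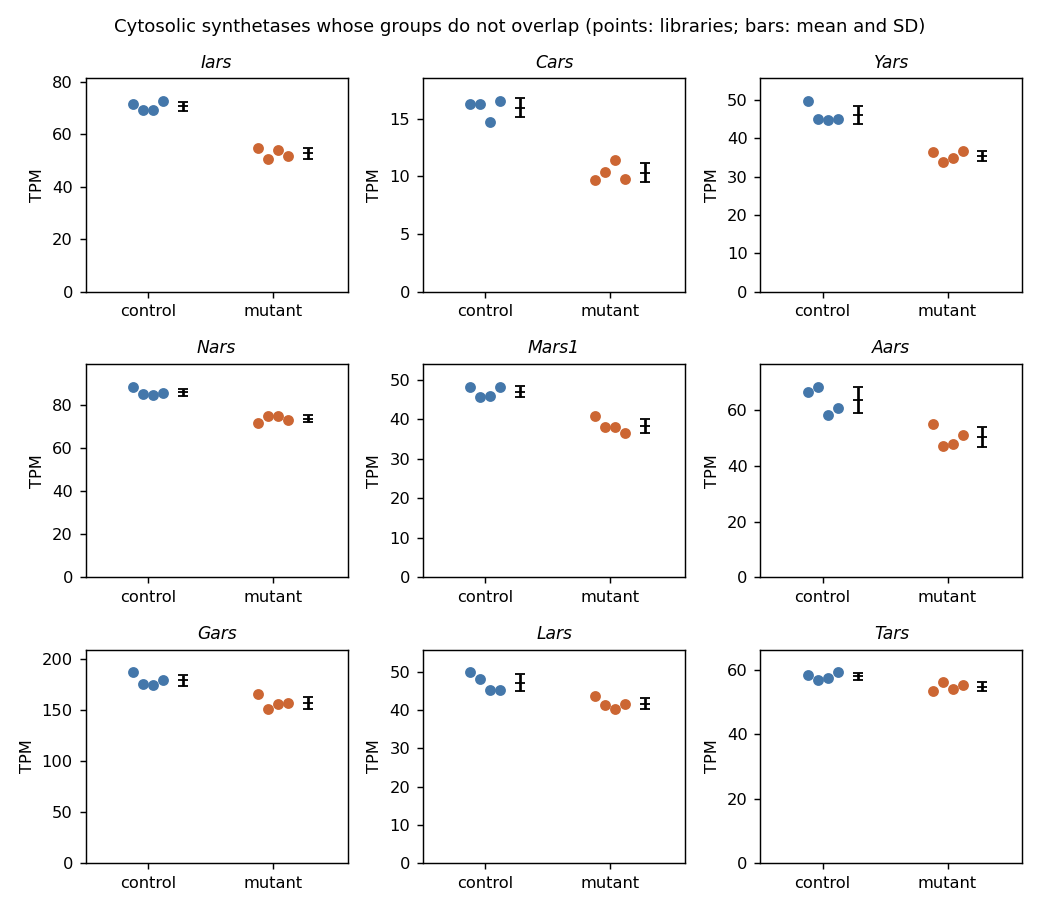
TPM of the 9 cytosolic synthetase genes whose control and mutant libraries do not overlap, ordered by p-value. Points are the 4 libraries of each group, the bars beside them give the mean and SD, and each axis starts at 0. The separation runs from 14.2 TPM for Iars to 0.499 TPM for Tars.

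The other 11 cytosolic genes (Dars, Eprs, Farsa, Farsb, Hars, Kars, Qars, Rars, Sars, Vars and Wars) had log2 fold changes between -0.094 (Sars) and 0.087 (Dars). In all 11 the 95% interval included 0, and the intervals together reached from -0.20 to 0.18. That range does not reach the estimates for Iars, Cars and Yars, but it includes those for Gars, Lars and Tars. The estimate for Sars lay below that for Tars (-0.081), so the 11 genes are not sharply divided from the 9 with separate groups. Eprs, the fused enzyme for glutamate and proline, was the steadiest, at 99.4 ± 0.592 TPM in controls and 101 ± 2.10 TPM in mutants (SD, n = 4 each). Its log2 fold change was 0.016, with an interval from -0.048 to 0.080. Kars, for lysine, held 145 ± 3.60 TPM in controls and 149 ± 3.21 TPM in mutants, with an interval from -0.030 to 0.11.

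Genes with separate groups occurred both inside and outside the multi-synthetase complex. Of its 8 enzymes, 3 (Iars, Mars1 and Lars) had separate groups, all lower, and the median log2 fold change was 0.0042. Of the 12 genes for enzymes outside it, 6 did, and the median was -0.088. Synthetases also fall into 2 structural classes with unrelated catalytic folds. Separate groups were seen in 5 of 9 class I genes (Iars, Cars, Yars, Mars1 and Lars), with a median of -0.17, and in 4 of 10 class II genes (Nars, Aars, Gars and Tars), with a median of -0.047. Eprs holds an enzyme of each class and was counted in neither. Over all genes tested, groups did not overlap, with mutants lower, in 2.05%. The subsets divide the same 9 cytosolic genes again, and the differences between subsets were not tested.

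Set beside the promoter windows, the 5 genes with TGATGNAA (Iars, Yars, Aars, Gars and Tars) had log2 fold changes from -0.41 to -0.081. The 8 cytosolic genes with a window that lacked it had values from -0.29 (Mars1) to 0.087 (Dars), with a median of 0.0042. Groups did not overlap, with mutants lower, in all 5 genes with the letters and in 1 of these 8 (Mars1). Over all genes tested the share was 2.05%. Cars, Nars and Lars, whose groups also did not overlap, had no window to search. Fold changes were not compared between all genes with and without the letters. A link between the letters and the fold changes was not tested.

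The scaffold genes of the complex showed no separation. Aimp1 held 85.9, 81.7, 82.0 and 82.3 TPM in the controls and 83.0, 85.8, 80.5 and 87.7 TPM in the mutants, with a log2 fold change of 0.022 and an interval from -0.060 to 0.10. Aimp2 held 65.6, 59.8, 65.5 and 65.1 TPM in the controls and 66.5, 67.0, 57.7 and 58.0 TPM in the mutants, with a log2 fold change of -0.040. Eef1e1, which also carries the name AIMP3, held 45.1, 42.6, 45.9 and 43.2 TPM in the controls and 43.9, 42.4, 40.02 and 42.4 TPM in the mutants, with a log2 fold change of -0.067. In each the groups overlapped, 0 of 3 passed the limma test, and 0 had an unadjusted p below 0.05. Among all genes tested, 0.0386% passed and 6.1% had an unadjusted p below 0.05. Groups did not overlap in 2.05% of all genes (mutants lower) and in 1.63% (mutants higher), so counts of 0 among 3 genes are near these shares.

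Xpot, which carries mature tRNA from the nucleus to the cytosol, held 39.3, 40.3, 36.9 and 39.6 TPM in the controls and 39.8, 36.1, 37.2 and 36.2 TPM in the mutants. Mutant replicate 1 lay among the controls and control replicate 3 among the mutants. The log2 fold change was -0.063, with an interval from -0.17 to 0.040 (limma adjusted p of 0.896).

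None of the 16 mitochondrial enzyme genes passed the limma test, a count of 0, and at an unadjusted p below 0.05 there were 2, both higher in the mutants. The median log2 fold change was 0.025, and 10 of the 16 were above 0. Over all genes tested, 2.65% had an unadjusted p below 0.05 in the higher direction, and groups did not overlap in that direction in 1.63%. The median depended on the libraries: it was -0.0051 without mutant replicate 1 and 0.067 without mutant replicate 4.

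Nars2, for the mitochondrial asparagine enzyme and the least abundant of the 40 genes, held 5.14, 6.54, 6.34 and 6.90 TPM in the controls and 7.88, 7.02, 6.95 and 7.86 TPM in the mutants. Every mutant lay above every control, by 0.0464 TPM at the closest. The difference was 0.23 on the log2 scale, standard error 0.091 (limma adjusted p of 0.809), opposite in sign to that of the cytosolic Nars. Rars2, for mitochondrial arginine, held 28.8, 22.9, 30.005 and 23.0 TPM in the controls and 29.5, 30.2, 29.3 and 31.8 TPM in the mutants. The mutants overlapped the upper pair of controls and lay above the lower pair, and the log2 fold change was 0.21 (limma adjusted p of 0.809). Of the remaining 14 genes, 13 other than Lars2 had log2 fold changes from -0.13 (Pars2) to 0.16 (Ears2).

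Lars2 stood apart in level and in spread. It is the gene for the mitochondrial leucine enzyme, at chromosome 9 from base 123366927 to 123462675, and it held 372, 375, 308 and 433 TPM in the controls and 297, 571, 437.5 and 484 TPM in the mutants. The next most abundant mitochondrial synthetase gene, Iars2, held 71.5 ± 2.42 TPM in controls (SD, n = 4). Both the lowest and the highest Lars2 values were mutants, and the log2 fold change of 0.24 had an interval from -0.17 to 0.64. Of the 15545 genes tested, the one whose log2(TPM + 1) followed Lars2 most closely over the 8 libraries, by Pearson correlation, was Rn18s-rs5, a sequence related to 18S ribosomal RNA, with 3517 TPM in mutant replicate 1 and 5818 TPM in mutant replicate 2. Gipr ranked 2 and Hey1 ranked 3. Gm15564 ranked 6, with 14.8 TPM in mutant replicate 1 and 28.6 TPM in mutant replicate 2. The longest Lars2 transcript of GENCODE M21 shares a stretch of 72 bases with Gm15564, 98.6% identical, at its bases 3278 to 3349 of 3894. No such stretch was found with the mitochondrial ribosomal RNAs mt-Rnr1 and mt-Rnr2, which ranked 566 and 488. The sequence of Rn18s-rs5 was not compared with Lars2. These features were looked at after the Lars2 values had been seen, and whether reads of ribosomal RNA were counted to Lars2 was not tested, so its level is uncertain.

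**Figure D3:**
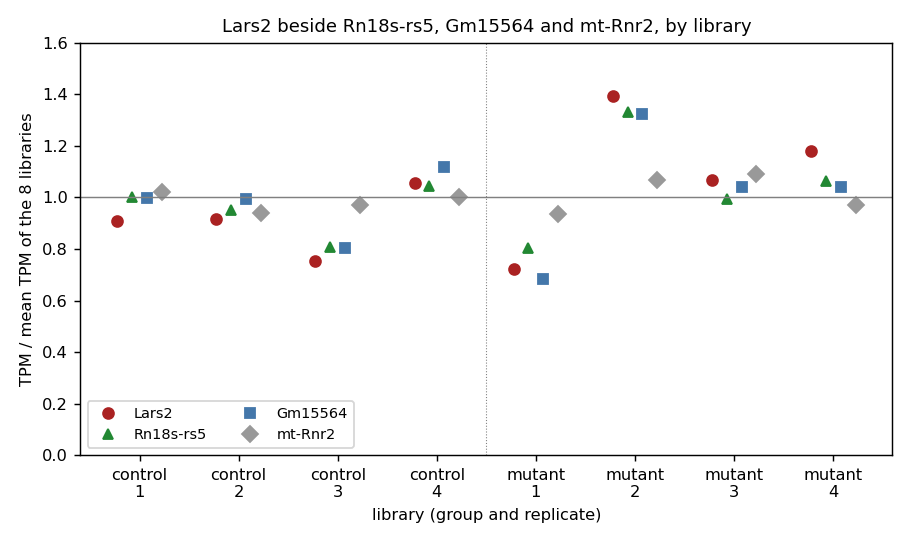
TPM of Lars2, Rn18s-rs5, Gm15564 and mt-Rnr2 in each library, divided by the mean of that gene over the 8 libraries. Mutant replicate 1 is lowest and mutant replicate 2 highest for Lars2, Rn18s-rs5 and Gm15564.

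In level, the cytosolic genes lay above the mitochondrial ones. The median control mean was 60.8 TPM over the 20 cytosolic genes, from 15.9 TPM (Cars) to 179 TPM (Gars). It was 20.0 TPM over the 16 mitochondrial genes, from 6.23 TPM (Nars2) to 71.5 TPM (Iars2) with Lars2 left aside. The cytosolic genes summed to 1412 ± 31.0 TPM in controls and 1325 ± 28.5 TPM in mutants (SD, n = 4 each). The libraries held 1445, 1405, 1372 and 1425 TPM in the controls and 1367, 1308, 1307 and 1317 TPM in the mutants, so every mutant sum lay below every control sum, with mutant replicate 1 closest. Mitochondrial genes without Lars2 summed to 319 ± 3.67 TPM in controls and 330.2 ± 12.6 TPM in mutants, with overlapping groups.

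**Figure D4:**
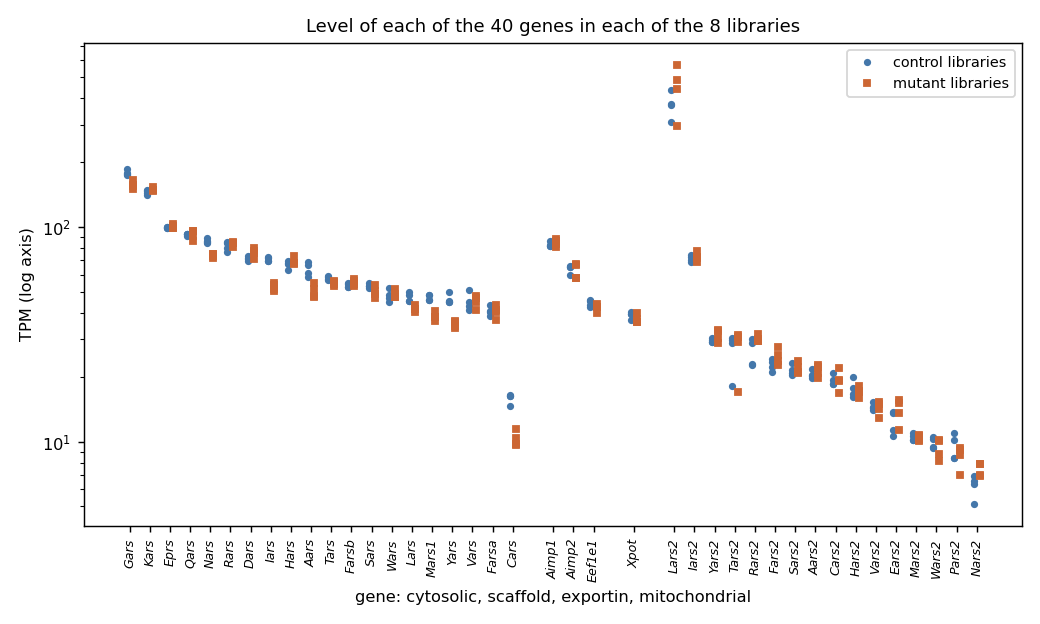
TPM of each of the 40 genes in each of the 8 libraries, on a log axis, ordered by control mean within the cytosolic, scaffold, exportin and mitochondrial groups. Lars2 is the highest and Nars2 the lowest, and Tars2 has 1 low library in each group.

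For 13 amino acids the cytosolic and mitochondrial enzymes are single, separate genes, and the ratio of their TPM was taken within each library. The cytosolic gene was the more abundant in 10 of the 13 pairs in controls, the exceptions being Cars, Iars and Lars. In 6 pairs (cysteine, asparagine, tyrosine, isoleucine, alanine and methionine) every mutant ratio lay below every control ratio, in 7 the groups overlapped, and in 0 were mutants higher. Iars over Iars2 was 0.991 ± 0.0433 in controls and 0.729 ± 0.0234 in mutants (SD, n = 4 each), so the isoleucine pair was near 1 in controls and below 1 in every mutant library. Yars over Yars2 was 1.56 ± 0.0531 in controls and 1.13 ± 0.0839 in mutants. Nars over Nars2 was 14.0 ± 2.19 in controls and 9.99 ± 0.884 in mutants. Cars over Cars2 was 0.825 ± 0.0590 in controls and 0.539 ± 0.101 in mutants. The cytosolic genes of the 6 pairs are all among those with separate groups described above, so the count of pairs is not separate from that result. No share over all genes was taken for such ratios. The ratios were not tested, since their cytosolic members had been compared already.

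**Figure D5:**
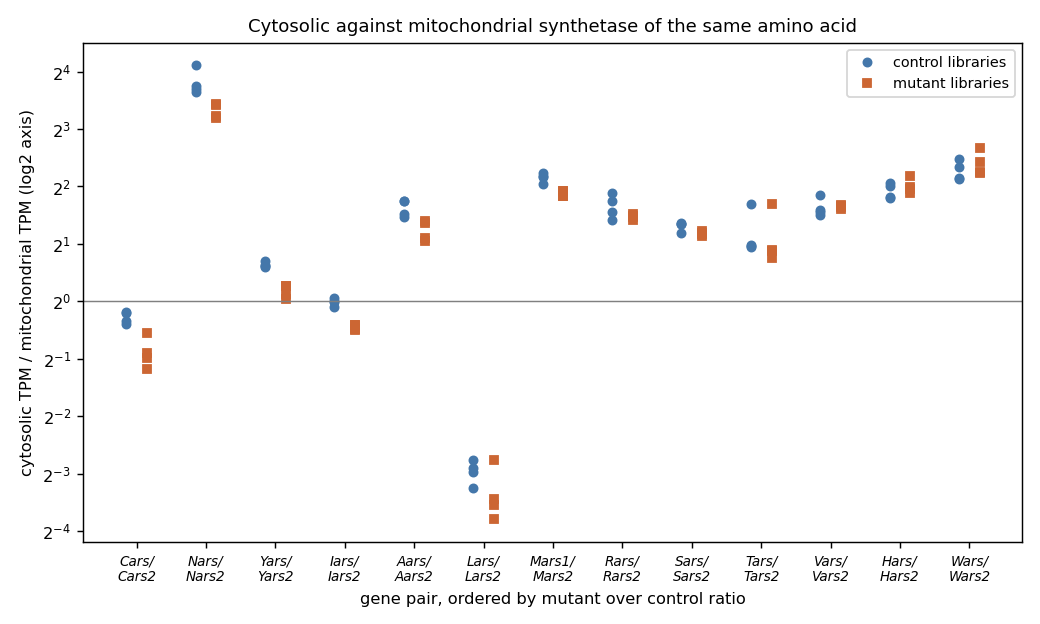
TPM of the cytosolic gene divided by TPM of the mitochondrial gene for the same amino acid, for 13 pairs in each library, on a log2 axis and ordered by the mutant to control ratio of the means. Mutant libraries lie below all controls for cysteine, asparagine, tyrosine, isoleucine, alanine and methionine. The Tars pair has 1 high library per group.

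Other genes of tRNA supply were compared from 4 lists: charging and editing genes outside the 40, elongation factors that carry charged tRNA, tRNA maturation and export, and RNA polymerase III transcription. Of their 64 genes 0 passed the limma test, and at an unadjusted p below 0.05 there were 0 lower and 3 higher, where all genes tested gave 3.45% lower and 2.65% higher. Groups did not overlap in 4 of the 64: Polr3b and Brf1, of the RNA polymerase III machinery, were lower in the mutants, and Rpp38 and Polr3g were higher, against 2.05% lower and 1.63% higher over all genes. The median log2 fold change was 0.0080 for the 12 charging and editing genes. It was 0.027 for the 6 elongation factors, where Tsfm had the smallest p, at 0.097. It was 0.020 for 24 maturation and export genes, where the ribonuclease P subunit Rpp38 had the smallest p, at 0.19 (limma adjusted p of 0.759). It was -0.011 for 22 RNA polymerase III genes, where the subunit Polr3g had the smallest p, at 0.15. The kinase gene for GCN2, Eif2ak4, held 14.1 ± 1.27 TPM in controls and 13.6 ± 0.438 TPM in mutants (SD, n = 4 each).

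A further list held 10 amino acid synthesis genes linked to ATF4. All 10 had log2 fold changes below 0, with a median of -0.24, where 8055 of all 15545 genes tested were below 0. Of the 10, 2 passed the limma test in the lower direction, against 0.0322% of all genes, Phgdh, the entry enzyme of serine synthesis, at -0.46 and Aldh1l2, a mitochondrial folate enzyme, at -0.45. This list was chosen with earlier results of these data known, and it was not compared with the synthetases by a test.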

How the data were processed

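The authors deposited 1 table of TPM for 8 libraries, with a symbol, chromosome, strand, start and end per feature. Per the submitters' processing notes, Trim Galore 0.6.7, HISAT2 2.2.1, StringTie 2.2.1 and featureCounts were used with GRCm38. Which of them made the TPM, and how strand and multiply mapped reads were handled, is not given in the sources used here. On library preparation the labels name both a stranded mRNA kit and removal of ribosomal RNA, and they give the mutants a wild-type genotype field. Groups and replicate numbers come from the titles, and all 8 libraries carry batch label 1. All 40 genes matched RefSeq GRCm38.p6 with identical start and end. Their 7 rows on alternative sequences are listed at 0 and were not used.

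Genes reaching 1 TPM in 4 or more libraries (15545) were fitted as log2(TPM + 1) in limma 3.58.1 (R 4.3.3) with a variance trend and no covariate. Fold changes on this scale understate the change of low genes. Two-sided p-values were adjusted by Benjamini-Hochberg over all genes at 0.05. The fit was tested on simulated data. Transcripts were compared with blastn 2.17.0+. The genes and lists were chosen with earlier results of these data known. Values per library are given for genes with an adjusted or unadjusted p below 0.05 or groups that do not overlap, for the scaffold genes, Xpot and Atf4, and other lists name the gene with the smallest p. 1 promoter sequence and 1 such gene are not reported here.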

Additional observations from a re-analysis of the deposited data

Results flagged for a closer look

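In 92 groups of 4 libraries (the 40 genes, Atf4 and 5 sums, in each genotype), a library lay far from the other 3 in 8, where the rate of the test, 5%, gives 4.6 by chance. Tars2, for the mitochondrial threonine enzyme, had 1 such library in each genotype. The other controls lay between 28.8 and 30.5 TPM and control replicate 1 at 18.2 TPM, while the other mutants lay between 29.1 and 31.5 TPM and mutant replicate 4 at 17.1 TPM. Around a log2 fold change of 0.0062 its interval, -0.47 to 0.48, is the widest of the 40 genes.

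For Cars, 3 controls lay between 16.3 and 16.5 TPM and control replicate 3 at 14.7 TPM, towards the mutants. For Yars, 3 controls lay between 44.7 and 45.1 TPM and control replicate 1 at 49.6 TPM, away from the mutants. Without that library the log2 fold change of Yars was -0.34 (limma adjusted p of 0.144). For Hars, 3 mutants lay between 67.2 and 68.0 TPM and mutant replicate 1 at 73.1 TPM. For Qars, 3 controls lay between 93.0 and 93.3 TPM and control replicate 3 at 91.1 TPM. For the scaffold gene Aimp1, 3 controls lay between 81.7 and 82.3 TPM and control replicate 1 at 85.9 TPM. For Aimp2, 3 controls lay between 65.1 and 65.6 TPM and control replicate 2 at 59.8 TPM.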

How the results depend on the processing

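There were 16 alternatives, 8 settings and 8 fits that each left out 1 library, all planned. The number of genes past the threshold, 6 over all genes and 3 of the 40 (each of them cytosolic), became 0, 0 and 0 with no filter, with no variance trend and with the replicate number as a block. Leaving out 1 library gave 0 to 3 over all genes, 0 to 2 of the 40 and 0 to 2 cytosolic genes. The median of the mitochondrial genes ranged from -0.0051 to 0.067 when 1 library was left out. No scaffold gene, mitochondrial gene or Xpot passed in any of the 16, and the sign was the same in all 16 for each of the 16 genes followed, Atf4 included. Iars passed in 9 of the 16 (adjusted p from 0.00185 to 0.249), Cars in 6 (0.0268 to 0.377) and Yars in 5 (0.0274 to 0.367). Mars1 passed in 2 (0.0274 to 0.502). Same-numbered control and mutant libraries did not deviate together (correlations of their deviations from the group means between -0.082 and 0.035), and only replicate 2 correlated best with its own number. The numbers therefore showed no pairing of the libraries, although correlations near 0 cannot exclude one. TPM keeps no depth, so no limit of detection is given.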

Other observations

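Of the 40 genes, 19 share bases with another listed feature, and the more abundant of these neighbours showed overlapping groups. Eif2ak1, the gene of the eIF2 kinase HRI, overlaps Aimp2 on the opposite strand and held 33.1 ± 0.534 TPM in controls and 32.7 ± 2.68 TPM in mutants (SD, n = 4 each). Orc3 overlaps Rars2 and held 23.9 ± 0.995 TPM and 24.3 ± 0.589 TPM. Rab3gap2 overlaps Iars2 and held 17.0 ± 1.00 TPM and 18.1 ± 0.730 TPM. Rps19-ps4 lies within Lars and held 8.05 ± 1.98 TPM and 7.34 ± 1.02 TPM. Hars and Hars2 overlap each other at their starts on opposite strands, and the groups of both overlapped.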
